A study of Rattus norvegicus with 6 samples.

Results

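The HOX genes of the rat kidney were taken as the rows of the deposited counts table whose gene name is Hox, a cluster letter from a to d and a paralog number. The rule found 36 rows of 31368 in the table, 8 in HOXA, 10 in HOXB, 9 in HOXC and 9 in HOXD. Kidney RNA of wild-type (WT) male Sprague-Dawley rats was sequenced in 3 libraries labelled Sham and 3 labelled CKD (chronic kidney disease). The design text gives an age of 8 weeks for the rats in which the disease model was set up; the sources used here give neither how the damage was caused nor what the sham procedure was. Nothing in the labels ties each library to its own animal, so p-values measure the spread between these libraries, which may be technical.

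HOX genes encode transcription factors that bind DNA through a homeodomain, and in mammals they lie in 4 clusters on different chromosomes. Genes at the same place in different clusters form a paralog group, and groups with low numbers act toward the head while those with high numbers act toward the tail. In the embryonic kidney, paralog group 11 works with Eya1 and Pax2 to switch on Six2 and Gdnf, group 10 is needed in the stroma, and the Hoxb7 promoter is active in the ureteric bud, the source of the collecting duct. Adult tissue keeps part of this positional pattern, in epithelium as well as in fibroblasts.

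The libraries held 15918035 to 17503644 assigned counts. Levels are given as CPM, which scales counts to the library size times its composition factor. Genes with too few counts for a test were set aside, and 15371 genes were tested with edgeR. Marker genes of proximal tubule, thick ascending limb, podocytes and endothelium on the lists used here were counted in every Sham library. Those of skeletal muscle summed to 0.0704 to 1.01 CPM and those of urothelium to 0.282 to 0.978 CPM, where 3 counts in a library amount to 0.145 to 0.211 CPM. Fat markers were above that, at 9.60, 16.3 and 4.57 CPM in Sham and 4.05 to 5.74 in CKD. Adrenal markers had 2.93, 6.08 and 4.22 CPM in Sham and 1.16 to 2.14 in CKD, lower in all CKD libraries. Both lists were highest in Sham 2, and their part in the HOX values was not tested. Sham 2 stood apart, where mitochondrial genes took 37.9% of counts, beside 14.4% in Sham 1, 15.3% in Sham 3 and 8.83% to 10.8% in CKD. In bulk tissue, fewer cells of a type and less RNA per cell cannot be told apart.

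HOXD supplied the largest share of HOX CPM, a mean of 49.6% ± 2.03 in Sham and 45.7% ± 2.75 in CKD (SD, n = 3 per group). HOXB followed with 31.97% ± 5.75 and 33.1% ± 2.17, then HOXA with 14.5% ± 4.72 and 13.6% ± 1.72. HOXC was the smallest, at 3.95% ± 1.77 in Sham and 7.60% ± 1.19 in CKD. All these shares count only the rows that the naming rule found, which understates HOXA. Rows described as Hox-A5, Hox-A6 and Hox-A10 are left out, with Sham means of 31.8, 7.15 and 35.5 CPM. The HOXA rows that were counted summed to a Sham mean of 67.6 CPM, and those of HOXB to 155. By paralog number the middle of the clusters dominated, with group 8 at 32.3% ± 4.49 and group 9 at 25.1% ± 4.94 of HOX CPM in Sham, and group 7 at 11.8% ± 4.95.

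Divided by the table's gene length, the highest level in Sham was that of Hoxd8, at 67.2 ± 22.1 CPM per kb, and it was also first in CKD at 49.6 ± 2.89. Hoxd9 followed with 45.0 ± 23.6 CPM per kb in Sham and 27.4 ± 0.333 in CKD. Next in both groups was Hoxb7, a gene long used to mark the ureteric bud, at 29.4 ± 16.2 and 18.1 ± 2.46 CPM per kb. Hoxb8, Hoxa9, Hoxb6, Hoxb3 and Hoxb2 followed in Sham with means from 21.2 down to 13.3 CPM per kb. Most neighbours in this order could not be separated: of 26 neighbouring pairs of tested genes, 1 (Hoxb2 above Hoxa7) was further apart in Sham than the sum of its SDs. Hoxd8 was nevertheless above Hoxd9 in 6 of 6 libraries. The length of Hoxc6 in the table, 10669 bases, is far above that of the other HOX rows, which lowers its level on this scale.

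**Figure D1:**
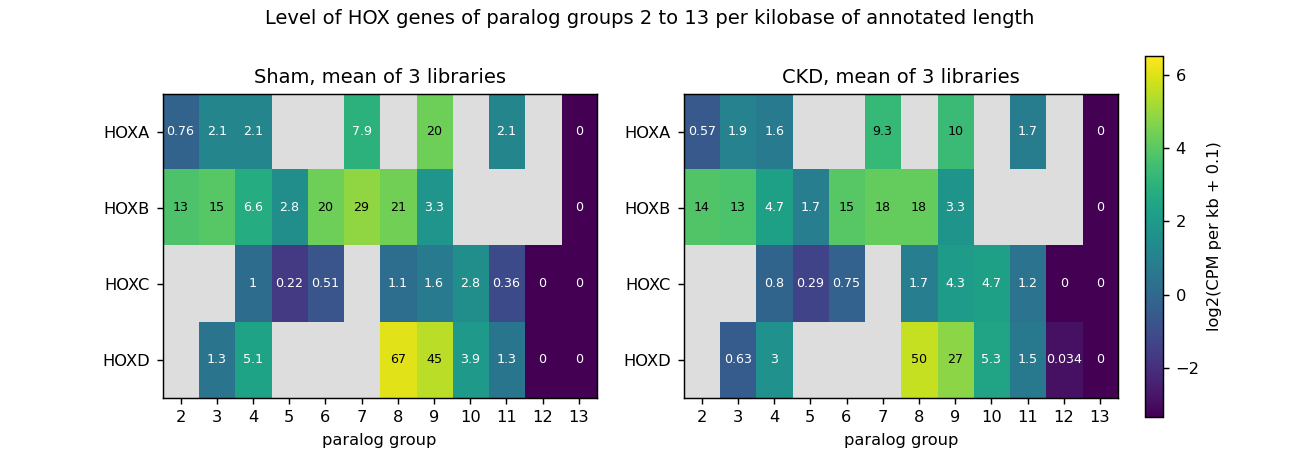
Mean level per kilobase of the HOX genes of paralog groups 2 to 13 (CPM per kb, printed in each cell, colour on a log2 scale with 0.1 added) by cluster and paralog group, for 3 Sham libraries on the left and 3 CKD libraries on the right. Grey cells have no row that the naming rule found; the high values lie at groups 8 and 9 of HOXD, group 9 of HOXA and groups 2, 3 and 6 to 8 of HOXB, and groups 12 and 13 are at or near 0.

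The tail ends of the clusters, and Hoxb1 and Hoxd1 at the head end, were silent or nearly so. Hoxa13, Hoxb13, Hoxc12, Hoxc13 and Hoxd13, which pattern the tail end of the body, had 0 counts in all 6 libraries. A count of 0 over the 6 libraries together allows up to 0.0289 CPM (3 counts, for counting error only). Hoxd12 had 2 counts, both in CKD 2. At the head end, Hoxb1 had 0 to 3 counts a library and Hoxd1 had 0 to 4. In all, 9 of the 36 genes have too few counts for any comparison. The other 27 passed the filter on low counts. Of those, 10 had at least 100 counts in every library, while Hoxc5, Hoxc8 and Hoxc11 had a library under 10 counts.

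In the comparison of CKD with Sham, none of the tested HOX genes was called: 0 of 27 passed an edgeR adjusted p of 0.05, where 3.82% of all 15371 genes tested did (2.67% higher and 1.15% lower in CKD). At an unadjusted p under 0.05 there were 3 of 27 HOX genes, namely Hoxc11, Hoxc9 and Hoxd4, where 23.8% of all genes tested met that level. The CKD libraries lay entirely apart from the Sham libraries for 4 HOX genes, a share below the 31.2% of all genes tested that were so separated. Hoxc9 and Hoxc11 were higher (18.8% of all genes tested were separated this way) and Hoxa4 and Hoxd4 lower (12.4%). The median log2 fold change of the 27 was -0.24, beside -0.01 for all genes tested, with 10 positive and 17 negative. With library totals alone in place of composition factors the same medians were 0.19 and 0.41, and without Sham 2 they were 0.16 and -0.02, so the sign of the HOX median turned. The limits of this design are wide: in data simulated from these libraries the same test called 6 of 100 genes set to a 2-fold change and 54 of 100 set to a 4-fold change. Only those genes were changed in the simulation, and each gene had the same relative spread in both groups. In the real libraries most genes varied more in Sham, so these rates are only a rough guide.

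**Figure D2:**
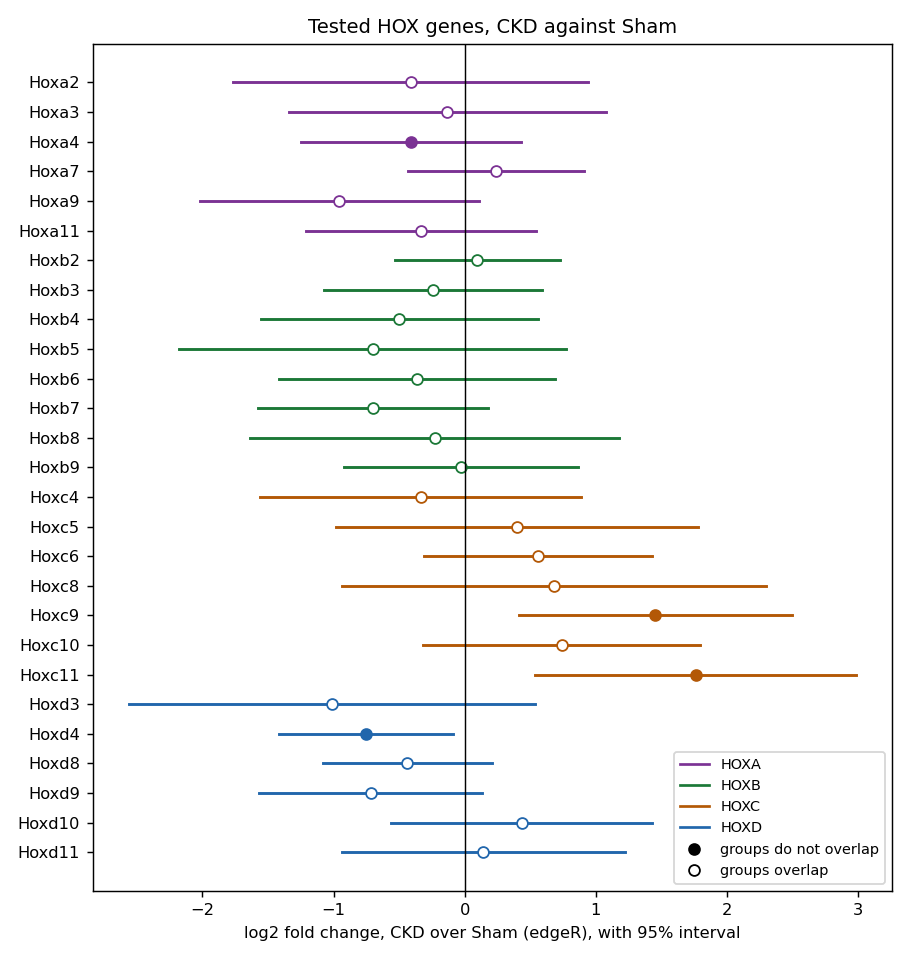
Log2 fold change of CKD over Sham for the 27 tested HOX genes (points, edgeR) with 95% intervals (lines), ordered by cluster and paralog group; filled points mark genes whose CKD and Sham libraries do not overlap. The intervals of Hoxc9, Hoxc11 and Hoxd4 lie off 0, and 6 of 7 HOXC points lie to the right of it while 5 of 6 HOXA and 7 of 8 HOXB points lie to the left; with library totals alone in place of composition factors, 4 of those HOXA and 4 of those HOXB points turn positive.

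With composition factors, HOXC was the cluster whose tested members had mostly positive fold changes, 6 of 7, with a median log2 fold change of 0.68. With library totals alone Hoxa2, Hoxa3, Hoxa4, Hoxa11, Hoxb3, Hoxb6, Hoxb8 and Hoxb9 turned positive as well. A mostly positive sign was then not particular to HOXC. Hoxc11, of the group that acts with Eya1 and Pax2, had 9, 7 and 14 counts in Sham against 52, 62 and 29 in CKD. That is 0.600, 0.489 and 0.985 CPM in Sham 1, 2 and 3 against 2.51, 3.08 and 1.49 in CKD 1, 2 and 3. All CKD libraries were above all Sham libraries, and the log2 fold change was 1.76 ± 0.53 (SE; edgeR adjusted p = 0.0951). Hoxc9, a trunk paralog, had 26, 24 and 12 counts in Sham against 78, 96 and 62 in CKD, or 1.73, 1.68 and 0.845 CPM against 3.76, 4.77 and 3.18. Its groups did not overlap either, and the edgeR log2 fold change was 1.45 ± 0.45 (adjusted p = 0.102). Both genes passed in DESeq2 (adjusted p = 0.0256 for Hoxc11 and 0.0222 for Hoxc9), which called 16.2% of all genes tested. Both also passed in edgeR with library totals alone (adjusted p = 0.0373 and 0.0321), a scaling that called 14.5% of all genes.

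Between these genes lies Hoxc10, of the group known from the renal stroma, with 7.60, 2.31 and 6.62 CPM in Sham and 10.4, 9.64 and 7.58 in CKD. Only Sham 1 reached the CKD range there (a log2 fold change of 0.74 ± 0.45 with an edgeR adjusted p = 0.36). Hoxc6 stood at 3.40, 7.48 and 5.42 CPM in Sham and 9.89, 6.66 and 7.48 in CKD, and the groups overlapped. Hoxc8, with 0.267, 1.96 and 1.83 CPM in Sham and 1.83, 1.84 and 2.82 in CKD, was set apart mainly by the low Sham 1. Hoxc5 and Hoxc4, at the head end of the cluster, had log2 fold changes of 0.40 ± 0.59 and -0.34 ± 0.53. By position, the 2 largest fold changes were thus those of members toward the tail end, Hoxc11 and Hoxc9, with Hoxc10 between them.

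Summed over its 9 rows, HOXC came to 15.3, 17.5 and 18.5 CPM in Sham and 31.4, 28.1 and 24.8 in CKD. It was the only cluster whose sums did not overlap between groups. The log2 ratio of the means was 0.72, and it stayed between 0.59 and 0.80 when any 1 library was left out. Stromal markers were also higher in all CKD libraries. The 7 fibroblast and mural cell genes on the list used here summed to 410, 128 and 225 CPM in Sham and 922, 846 and 659.5 in CKD. Within CKD the libraries had the same order as for HOXC. Within Sham they did not, since Sham 1 was lowest for HOXC and highest for these markers. The part of these 7 genes in the HOXC values was not tested. All 7 were counted in all CKD libraries and had positive fold changes, from 0.09 for Acta2 to 2.90 for Col1a1 on the log2 scale. The groups overlapped for Acta2 and Lum. Col1a1, a chain of type I collagen, was the member that passed (edgeR adjusted p = 0.0493), where 3.82% of all genes tested did. Macrophage markers (45.2 to 126 CPM in Sham, 184 to 402 in CKD) and T cell markers (6.85 to 7.47 and 19.7 to 40.5) were likewise apart. Both lists also had the CKD order of HOXC and, within Sham, were highest in Sham 1. In edgeR, 1 of 5 macrophage genes (C1qa) and 2 of 5 T cell genes (Lck and Cd3g) passed. The part of these lists in the HOXC values was not tested.

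**Figure D3:**
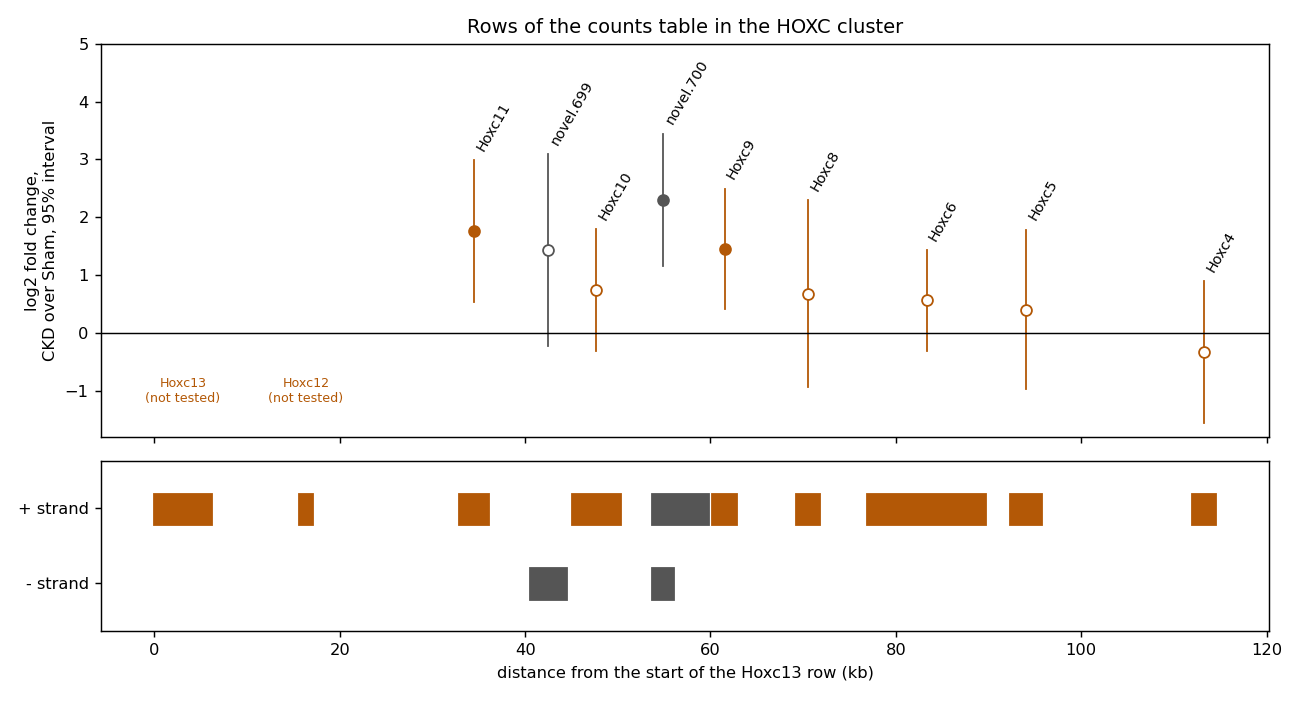
Rows of the counts table across the HOXC cluster by distance from the start of the Hoxc13 row in kb (x axis), with log2 fold change of CKD over Sham and its 95% interval above and the extent and strand of each row below; HOX genes are orange, unnamed added rows grey, filled points have groups that do not overlap, and miRNA rows are left out. The positive values stretch from Hoxc11 to Hoxc5 and are largest between Hoxc11 and Hoxc9, where the added row that passed the test also lies; the grey row on the + strand was too low to test.

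HOXD held the most abundant members and no member was called. Hoxd8 stood at 139.6, 173 and 86.1 CPM in Sham and 97.1, 104 and 93.0 in CKD. The CKD values sit within the Sham range, and the log2 fold change was -0.44 with a 95% interval from -1.08 to 0.21. Hoxd9 had 74.3, 129 and 44.0 CPM in Sham and 50.7, 49.5 and 50.3 in CKD, which also sit within the Sham range (a log2 fold change of -0.72 ± 0.36 with an edgeR adjusted p = 0.276). Hoxd10, a stromal group member, stood at 5.13, 11.8 and 4.72 CPM in Sham and 8.63, 12.8 and 7.89 in CKD, where Sham 2 alone reached the CKD range. Hoxd11 was low, at 1.20, 1.89 and 0.915 CPM in Sham and 1.47 ± 0.0290 in CKD (SD, n = 3). Hoxd3 had 1.33, 6.71 and 1.69 CPM in Sham and 1.49 to 1.78 in CKD, so that its log2 fold change of -1.01 became 0.046 without Sham 2.

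Hoxd4 had 11.6, 18.4 and 11.1 CPM in Sham against 7.86, 8.60 and 7.99 in CKD. All CKD values were below all Sham values (a log2 fold change of -0.75 ± 0.29 with an edgeR adjusted p = 0.166), and it was -0.52 without Sham 2 and -0.32 with library totals alone. Hoxa4, its paralog in HOXA, showed the same arrangement at a lower level, with 3.40, 3.63 and 2.67 CPM in Sham and 2.32, 2.43 and 2.56 in CKD. There the smallest gap between groups was narrow, the log2 fold change was -0.41 ± 0.36 (edgeR adjusted p = 0.531), and with library totals alone it was 0.015. Row Hoxd4 also covers the host region of Mir10b on the same strand, and Hoxa4 lies within the long Hoxa3 row, so reads there cannot always be assigned to 1 gene.

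The start regions of these paralogs are shown because they are the pair in 1 group whose libraries did not overlap. Each is the 250 bases before the RefSeq start, 5′ to 3′ on the gene's strand, in build GRCr8. Hoxa4 is at chr4:82622303-82622552 on the minus strand and Hoxd4 at chr3:80021636-80021885 on the plus strand. Capitals mark matches, on either strand, to TGACAG (the MEIS core), TGATNNAT (a HOX-PBX site), TAATTA (a homeodomain core) or direct repeats of AGGTCA (retinoid receptor sites) with 5 or 2 free bases between them.
Hoxa4: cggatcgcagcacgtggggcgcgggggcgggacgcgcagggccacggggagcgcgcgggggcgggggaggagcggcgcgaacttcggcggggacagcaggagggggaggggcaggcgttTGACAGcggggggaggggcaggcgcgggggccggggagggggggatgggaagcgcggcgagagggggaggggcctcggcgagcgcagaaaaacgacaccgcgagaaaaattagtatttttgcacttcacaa
Hoxd4: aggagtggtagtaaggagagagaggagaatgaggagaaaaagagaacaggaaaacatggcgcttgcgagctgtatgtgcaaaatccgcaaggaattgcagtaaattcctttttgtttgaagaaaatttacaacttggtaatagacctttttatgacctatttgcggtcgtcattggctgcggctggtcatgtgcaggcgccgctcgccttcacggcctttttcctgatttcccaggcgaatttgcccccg
The Hoxa4 window holds 1 match, to TGACAG, and the Hoxd4 window holds 0. RefSeq windows were matched by symbol for 18 of the 36 HOX genes. Among them TGACAG occurred in 3 (16.7%, beside 15.6% of 27457 promoters), TGATNNAT in 3 (16.7%, beside 7.75%) and TAATTA in 1 (5.56%, beside 4.94%). Of the retinoid repeats, the form with 5 free bases occurred in 0.0109% of all promoters and in 0 of the 18, and the form with 2 free bases in 0 promoters of either kind. Hoxa4 had 72.8% and Hoxd4 47.2% G or C in this window, against a median of 52.0% over all promoters.

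In HOXA and HOXB, fold changes were negative in 5 of 6 tested HOXA genes and 7 of 8 HOXB genes, with medians of -0.37 and -0.30. With library totals alone the sign turned for Hoxa2, Hoxa3, Hoxa4, Hoxa11, Hoxb3, Hoxb6, Hoxb8 and Hoxb9. Hoxa9, known for its role in blood progenitors and trunk patterning, stood at 15.7, 62.8 and 31.0 CPM in Sham and 17.3, 18.3 and 20.9 in CKD. Sham 1 was below all CKD libraries and the other Sham libraries above them. Its log2 fold change was -0.96 ± 0.46 (edgeR adjusted p = 0.25), and without Sham 1 it was -1.37 and was called (edgeR adjusted p = 0.0460). Leaving out Sham 1 also called far more of all genes tested than the main fit did, as the last section gives. Hoxa7 had 18.1, 16.5 and 14.01 CPM in Sham and 12.9, 19.6 and 24.8 in CKD, the 1 tested HOXA gene with a positive fold change (0.24 ± 0.29). Hoxa11 stood at 4.33, 6.78 and 3.45 CPM in Sham and 3.43, 4.17 and 3.94 in CKD (log2 fold change -0.33 ± 0.38), opposite in sign to Hoxc11 of the same group. Hoxa2 and Hoxa3 overlapped between groups, with log2 fold changes of -0.41 ± 0.58 and -0.13 ± 0.52.

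Within HOXB, Hoxb7 had 61.3, 28.0 and 23.2 CPM in Sham and 20.1, 22.8 and 26.4 in CKD. Sham 1 was far above the rest, and the log2 fold change of -0.70 ± 0.38 (edgeR adjusted p = 0.301) became -0.20 without it. Hoxb8, its neighbour, had the same order in Sham, at 38.4, 18.3 and 5.14 CPM, around CKD values of 15.8 to 20.8. Sham 1 had the lowest sum among Sham libraries for the collecting duct principal cell list (426 CPM, against 1705 in Sham 2 and 506 in Sham 3). The principal cell list was lower in all CKD libraries (291 to 403 CPM) than in all Sham libraries, and its part in the HOXB values was not tested. The thick ascending limb list was instead highest in Sham 1, at 7961, 3457 and 1942 CPM in Sham 1, 2 and 3. Within Sham, the fibroblast and mural cell, macrophage and T cell lists were also highest in Sham 1, and the remaining lists in Sham 2 or Sham 3. The part of these lists in the HOXB values was not tested either. Hoxb4, Hoxb5 and Hoxb6 were instead highest in Sham 2. Hoxb4 had 7.07, 20.6 and 7.32 CPM in Sham and 7.28, 8.00 and 9.48 in CKD. Hoxb5 had 2.13, 8.80 and 1.97 CPM in Sham and 3.14, 2.53 and 2.25 in CKD, and Hoxb6 had 19.2, 46.1 and 12.5 against 21.8, 17.4 and 21.2. Without Sham 2 their log2 fold changes turned from -0.50, -0.70 and -0.36 to 0.16, 0.32 and 0.30. Hoxb3, Hoxb2 and Hoxb9 lay close to 0, with log2 fold changes of -0.24 ± 0.36, 0.10 ± 0.27 and -0.03 ± 0.38. For Hoxb2 the 95% interval ran from -0.53 to 0.72.

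**Figure D4:**
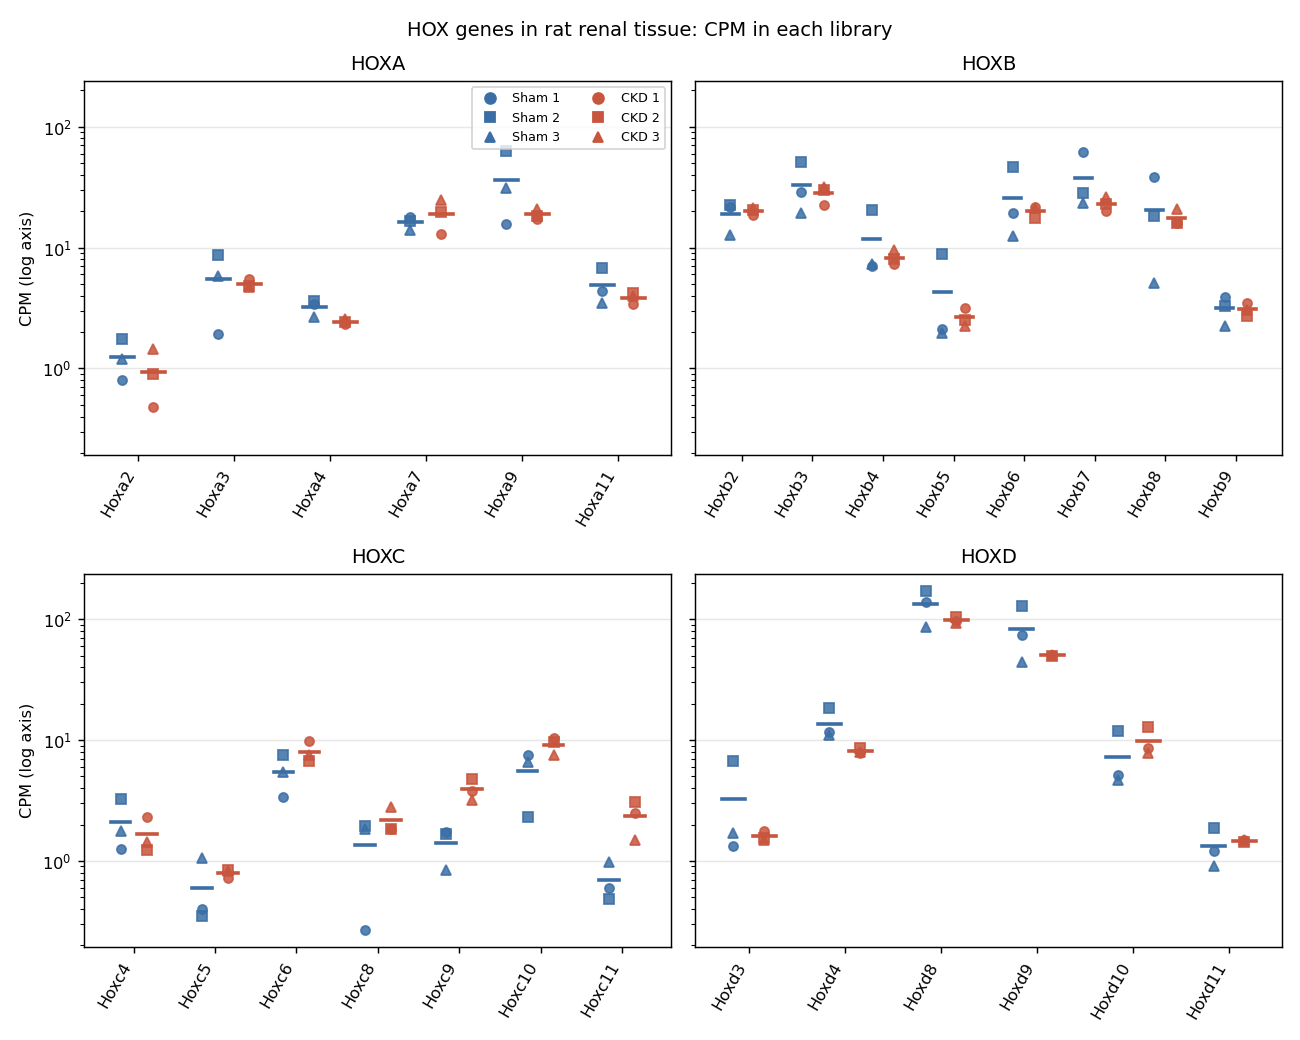
CPM of each tested HOX gene in each library on a log axis, Sham in blue and CKD in red, with circles, squares and triangles for replicates 1, 2 and 3 and short bars for the group means. The CKD points lie close together for most genes while the Sham points spread, with the Sham 2 squares uppermost for Hoxa9, Hoxb4, Hoxb5, Hoxb6, Hoxd3 and Hoxd9 and the Sham 1 circles uppermost for Hoxb7 and Hoxb8.

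A further 3 rows of the HOXA region carry other names in the table, which describes them as Hox-A5 (LOC103692127), Hox-A6 (LOC100911511) and Hox-A10 (LOC100911668). LOC103692127 had 16.9, 47.9 and 30.5 CPM in Sham and 18.1, 22.3 and 24.0 in CKD, and LOC100911511 had 3.93, 12.3 and 5.21 against 3.18, 4.62 and 5.89. Both were highest in Sham 2, like Hoxa9, and both lie within the long Hoxa3 row. LOC100911668 differed little, with 25.3, 44.2 and 36.9 CPM in Sham, 36.5 to 38.0 in CKD and a log2 fold change of 0.08 (95% interval -0.48 to 0.64).

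Cluster sums put the members found by the naming rule together, without the rows under other names. HOXA summed to 44.7, 100.1 and 58.1 CPM in Sham and 42.2, 50.8 and 58.6 in CKD, HOXB to 183, 198 and 84.6 against 113, 120.3 and 136, and HOXD to 233, 341 and 149 against 168, 178 and 162. In each of these clusters the groups overlapped. The log2 ratios of the means were -0.42, -0.33 and -0.51, and with library totals alone they were 0.0061, 0.097 and -0.074.

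**Figure D5:**
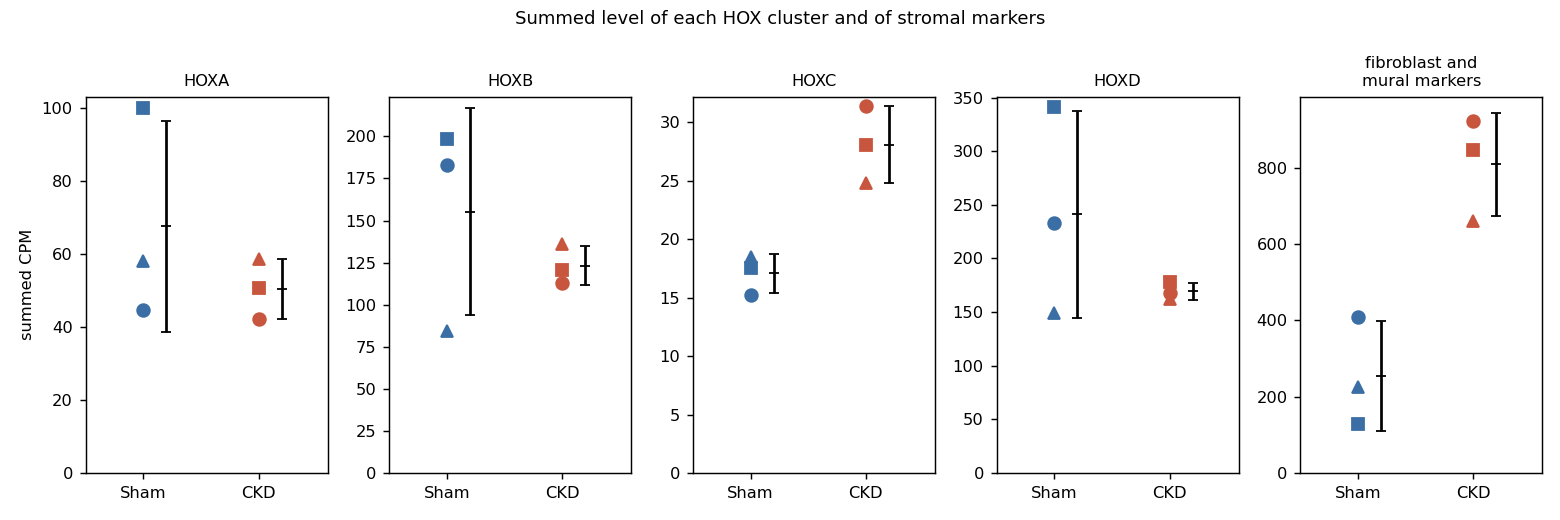
Summed CPM of the members of each HOX cluster and of the 7 fibroblast and mural cell markers in each library (circles, squares and triangles for replicates 1, 2 and 3), with the mean and SD of each group of 3 in black. Only in HOXC and in the stromal markers are all CKD points above all Sham points.

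By paralog group, fold changes had 1 sign in groups 3 and 4 (all 3 and all 4 tested members negative) and in group 10 (2 of 2 positive). In groups 3 and 4 this was lost under alternatives: with library totals alone Hoxa3 (0.30), Hoxb3 (0.19), Hoxa4 (0.015) and Hoxc4 (0.10) turned positive, and without Sham 2 Hoxa3 (0.34), Hoxb3 (0.17), Hoxd3 (0.046), Hoxb4 (0.16) and Hoxc4 (0.097) did. Both members of group 10 stayed positive in those settings. Library totals alone raised the median fold change of all genes tested, so that setting could not test whether a positive sign holds. Group 4 summed to 23.3, 46.0 and 22.9 CPM in Sham and 19.8, 20.3 and 21.5 in CKD, and group 9 to 95.6, 197 and 78.1 against 75.3, 75.3 and 77.4, so both sums were lower in all CKD libraries. The gaps were narrow, with group 9 at 78.1 in Sham 3 and 77.4 in CKD 3. They also rest on composition factors of 0.837 to 0.893 in Sham and 1.13 to 1.19 in CKD. Paralog group sums were not recomputed with library totals alone. Group 9 held opposite members, since Hoxa9 and Hoxd9 had negative fold changes and Hoxc9 a positive one. Over the members found by the naming rule, group 10 summed to 12.7, 14.1 and 11.3 CPM in Sham and 19.0, 22.4 and 15.5 in CKD. By these sums it was the 1 group with all CKD sums above all Sham sums. They leave out the row described as Hox-A10 (LOC100911668), at 25.3, 44.2 and 36.9 CPM in Sham and 36.5 to 38.0 in CKD. That row was above Hoxc10 and Hoxd10 in every library, and its groups overlapped, so the separation holds only for the rows under the naming rule. The remaining groups with tested members, 2, 3, 5, 6, 7, 8 and 11, overlapped.

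HOX genes varied more among Sham than among CKD libraries. The coefficient of variation was larger in Sham for 25 of 27 HOX genes (92.6%), against 80.0% of all genes tested. Its median over HOX genes was 49.99% in Sham and 13.5% in CKD, beside 33.5% and 15.4% over all genes. Sham 2 held the highest value of 16 of the 27 (59.3%), whereas 23.1% of all genes tested were highest there. Sham 2 also had the highest sums of collecting duct principal cell markers, of intercalated cell markers (1729 CPM, against 299 and 519 in the other Sham libraries) and of distal convoluted tubule markers (1950, against 109 and 782), and the highest mitochondrial share. The part of these in the HOX values was not tested.

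The table has 17 other rows between the first and last HOX gene of a cluster. Of these 10 could be tested and 1 was called, where 3.82% of all genes tested were. It is an addition to the annotation with no gene symbol or description, on the minus strand between Hoxc10 and Hoxc9 (chromosome 7, 134112311 to 134114703 in the table's coordinates). It had 7, 6 and 7 counts in Sham against 45, 62 and 32 in CKD and rose, with an edgeR log2 fold change of 2.30 ± 0.49 (adjusted p = 0.0484). The call was at the edge. It was lost with RLE factors (edgeR adjusted p = 0.0509), with no filter on low counts (0.0619), with mitochondrial genes removed (0.0524), in limma-voom (0.0703) and without Sham 2, Sham 3, CKD 1, CKD 2 or CKD 3 (0.0746 to 0.224). It shares its position with another added row on the other strand (0 or 1 count in Sham, 5, 7 and 15 in CKD), and the sources used here do not give the strand setting, so their reads cannot be told apart. Between Hoxc11 and Hoxc10 a further added row on the minus strand had 3, 10 and 18 counts in Sham against 45, 54 and 20 in CKD, without overlap in counts but with overlap in CPM. In HOXA an added row had 27, 27 and 19 counts in Sham against 6, 11 and 7 in CKD (a log2 fold change of -2.05 ± 0.51 with an edgeR adjusted p = 0.0647). Hoxa11-as, the antisense neighbour of Hoxa11, overlapped between groups (1.33, 5.10 and 2.25 CPM against 1.01, 1.74 and 1.64).

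MicroRNA genes are part of the HOX clusters, and miR-196 is a known repressor of HOX messages. The 5p mature sequences of the miR-196 and miR-10 genes in the clusters are given from RefSeq (GRCr8), with the seed, bases 2 to 8, in capitals.
rno-miR-196a-5p: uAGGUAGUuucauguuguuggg
rno-miR-196b-5p: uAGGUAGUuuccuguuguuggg
rno-miR-196c-5p: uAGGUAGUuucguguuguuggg
rno-miR-10a-5p: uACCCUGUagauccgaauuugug
rno-miR-10b-5p: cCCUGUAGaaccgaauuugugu
The miR-196 members, from HOXC, HOXA and HOXB, share the seed AGGUAGU, while the annotated start of miR-10a gives ACCCUGU and that of miR-10b CCUGUAG. The labels name an RNA-seq kit rather than a small RNA kit, so a row for a miRNA gene reports reads over its hairpin and not the mature miRNA. Mir196b, between Hoxa9 and LOC100911668, had 58, 63 and 90 counts in Sham against 70, 62 and 74 in CKD. Scaled, that is 3.87, 4.40 and 6.33 CPM against 3.38, 3.08 and 3.79, with no overlap between groups (edgeR log2 fold change -0.51 ± 0.36, adjusted p = 0.424). Mir196a, Mir196c, Mir10a, Mir10b and Mir615 had 0 to 8 counts a library and were not tested.

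HOX proteins bind DNA together with TALE homeodomain proteins of the PBX, MEIS and PREP (Pknox) families. Of 9 such genes 0 passed in edgeR, with a median log2 fold change of 0.15. At an unadjusted p under 0.05 there were 2, beside 23.8% of all genes tested. Meis1 had 1.73, 0.419 and 2.32 CPM in Sham and 7.19, 6.26 and 5.94 in CKD, with every CKD library above every Sham library (a log2 fold change of 2.11 ± 0.58 with an edgeR adjusted p = 0.0816). Meis1 passed in DESeq2 (adjusted p = 0.00396), which called 16.2% of all genes tested. It also passed with library totals alone (edgeR adjusted p = 0.0332), a scaling that called 14.5% of all genes, mostly as higher in CKD. Pbx3 was arranged the other way, with 21.8, 20.7 and 16.3 CPM in Sham and 11.7, 11.6 and 15.2 in CKD (a log2 fold change of -0.61 ± 0.24 with an edgeR adjusted p = 0.177).

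Trithorax-type complexes keep HOX genes active and polycomb complexes keep them silent. Of 12 trithorax and MLL-type genes 0 passed in edgeR, with a median log2 fold change of 0.21. At an unadjusted p under 0.05 there were 4, beside 23.8% of all genes tested. Fold changes were positive in 9 and negative in 3. The groups did not overlap for 4 higher and 2 lower genes, beside 18.8% and 12.4% of all genes tested. The 2 with the smallest p were both lower in CKD. Dot1l, the methyltransferase of histone H3 on active genes, had 53.5, 143 and 115 CPM in Sham and 51.7, 40.8 and 39.4 in CKD (edgeR adjusted p = 0.0889), and Kdm6b, which removes the polycomb mark, had 93.3, 131 and 159.6 against 83.8, 78.7 and 85.5 (edgeR adjusted p = 0.165). The other 2 at an unadjusted p under 0.05, Men1 and Psip1, which tether MLL complexes and were named after their values were seen, lay higher without overlap, with log2 fold changes of 0.57 ± 0.22 and 0.53 ± 0.21 (edgeR adjusted p = 0.171 and 0.183). Of 16 polycomb genes 0 passed in edgeR, with a median of 0.27. At an unadjusted p under 0.05 there were 3, beside 23.8% of all genes tested. Jarid2, a subunit that helps polycomb bind, had 74.1, 62.9 and 80.7 CPM in Sham and 43.3, 41.9 and 44.8 in CKD (a log2 fold change of -0.74 ± 0.18 with an edgeR adjusted p = 0.0653). Cbx6, a reader of the polycomb mark, had 68.2, 46.9 and 47.9 against 89.9, 96.0 and 91.8 (0.77 ± 0.21, edgeR adjusted p = 0.0817). Fold changes were positive in 11 of the 16 polycomb genes and negative in 5. The groups did not overlap for 4 higher polycomb genes, among them Cbx6, and for 1 lower, Jarid2. Of all genes tested, 18.8% and 12.4% were so separated.

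Retinoic acid is a main inducer of HOX genes in the embryo. Of 15 tested genes of its synthesis, receptors and breakdown 1 passed, where 3.82% of all genes tested did. Fold changes were positive in 8 and negative in 7, with a median of 0.51 on the log2 scale that is the smallest of the positive values. Aldh1a2, the enzyme that makes retinoic acid in mesenchyme, rose from 3.13, 2.52 and 2.67 CPM in Sham to 17.3, 12.9 and 8.60 in CKD (a log2 fold change of 2.22 ± 0.35 with an edgeR adjusted p = 0.0323). Its call was lost in limma-voom (adjusted p = 0.0524) and without Sham 2, Sham 3, CKD 1 or CKD 2 (edgeR adjusted p from 0.0603 to 0.167). Aldh1a3, a related enzyme, had 16.7, 10.97 and 16.8 CPM in Sham and 23.8, 26.2 and 34.5 in CKD (edgeR adjusted p = 0.0871).

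Among genes that act with or under HOX proteins in kidney development, 8 of 13 could be tested and 0 passed in edgeR. At an unadjusted p under 0.05 there was 1, beside 23.8% of all genes tested. The targets of paralog group 11 in nephron progenitors were at or near 0: Six2 had 1 count and Gdnf 1 count over the 6 libraries. Pax2 had 25.3, 17.7 and 18.8 CPM in the Sham libraries and 17.4, 17.1 and 21.8 in the CKD libraries. Eya1, which had the next smallest p on this list, had 7.47, 2.38 and 2.74 CPM against 1.45, 2.58 and 5.69. Sall1, a zinc finger regulator of nephron progenitors, had 32.1, 59.4 and 72.5 CPM in Sham and 87.7, 100.5 and 118 in CKD (a log2 fold change of 0.90 ± 0.31 with an edgeR adjusted p = 0.137). Of the genes that flank the clusters and the CDX and EVX genes, 7 of 13 could be tested and 0 passed in edgeR. At an unadjusted p under 0.05 there was 1, beside 23.8% of all genes tested. Smug1 and Cbx5, which lie on chromosome 7 beyond the HOXC cluster, had groups without overlap and log2 fold changes of 0.57 ± 0.22 and 0.54 ± 0.23 (edgeR adjusted p = 0.172 and 0.211). Evx1 and Evx2, at the tail ends of HOXA and HOXD, had 0 counts.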

How the data were processed

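The authors deposited 1 table of raw counts per gene for 6 libraries of total RNA from kidney. The submitters' processing notes name fastp 0.20.1, HISAT2 2.1.0, HTSeq 0.11.2 and build Rnor_6.0, with no role or order. Gene ends on chromosome 1 reach 260398790, and whether its coordinates are those of that build was not settled. The sources used here do not give the strand setting. Gene lengths are the table's own.

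Counts were tested in edgeR 4.0.16 (R 4.3.3) with TMM factors, filterByExpr (minimum count 10, total 15) and the robust quasi-likelihood test, with Benjamini-Hochberg adjustment over all 15371 genes tested and called under 0.05. The biological coefficient of variation was 37.5%. No library pair within a group agreed within sampling noise (chi-square divided by its degrees of freedom, 30.9 to 330.1). The procedure was tested on simulated data, where 3 unchanged genes were called beside 60 changed ones. Intervals are at 95% and floors at 3 counts; both cover counting or model error only. Alternatives used other scalings and filters, a replicate block, DESeq2 1.42.0, limma 3.58.1 voom, and 1 library left out at a time.

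The members and gene lists were chosen with earlier results of these data known. Genes with values in every library were the 3 with the smallest p per cluster, the 3 with the highest level per kb, those without overlap and at least 50 counts, and, per list, those called and the 2 with the smallest p; other values are for description. RefSeq sequences (GRCr8) were matched by symbol or miRNA name. The values of 1 gene are not reported here.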

Additional observations from a re-analysis of the deposited data

How the results depend on the processing

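The count of 587 genes called by edgeR became 2228 with library totals alone (2047 higher and 181 lower, against 411 and 176), 2497 in DESeq2, 195 in limma-voom and 10 with a replicate block, and ranged from 0 to 1711 with 1 library left out: 1711 without Sham 1, 2 without Sham 2, 7 without Sham 3, 0 without CKD 1 or CKD 2. Library totals alone moved the median log2 fold change of all genes from -0.01 to 0.41. HOX genes called numbered 0, against 2 with library totals alone, 2 in DESeq2, 0 with the replicate block, and 0 to 1 with 1 library left out. The log2 ratio of the summed CPM moved from 0.72 to 1.14 for HOXC and from -0.51 to -0.074 for HOXD with library totals alone. Replicate numbers did not pair the libraries: the deviations of same-numbered libraries correlated at -0.229, 0.00685 and -0.154, and Sham 1 correlated best with CKD 3. Of 431 recomputed HOX fold changes 405 kept their sign.

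With library totals alone the log2 fold change reversed to 0.015 for Hoxa4, 0.094 for Hoxa11, 0.077 for Hoxb6, 0.0030 for Hoxa2, 0.19 for Hoxb3, 0.10 for Hoxc4, 0.20 for Hoxb8, 0.30 for Hoxa3, 0.40 for Hoxb9 and 0.032 for Eya1. With the replicate block it reversed to 0.13 for Hoxb8 and 0.074 for Hoxa3, in limma-voom to 0.17 for Hoxb8 and 0.12 for Hoxa3, and with upper-quartile factors to 0.035 for Hoxb9. With 1 library left out it ranged from -1.45 to 0.046 for Hoxd3, -1.12 to 0.32 for Hoxb5, -0.82 to 0.16 for Hoxb4, -0.77 to 0.30 for Hoxb6, -0.58 to 0.17 for Hoxb3, -0.65 to 0.097 for Hoxc4, -0.59 to 0.34 for Hoxa3, -0.75 to 0.53 for Hoxb8, -0.28 to 0.10 for Hoxb9, -0.19 to 0.19 for Hoxb2, -0.13 to 0.43 for Hoxd11, -1.05 to 0.30 for Eya1 and -0.17 to 0.23 for LOC100911668. The cause of these changes was not tested.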
